A study of Mus musculus with 24 samples.

Results

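A set of 8 genes of antigen presentation by major histocompatibility complex (MHC) class II were followed through mouse choroid, chosen by name and matched to the gene identifiers of the expression table. They were H2-Aa, H2-Ab1 and H2-Eb1 (the chains of the class II molecules), Cd74 (the invariant chain), Ciita (the transactivator), H2-DMa and H2-DMb1 (the peptide editor) and Cd86 (a costimulatory ligand), 8 of 56065 genes listed. All 8 were above 0 in each of the 24 libraries and passed the filter on low values, a mean of at least 10 normalized counts over the libraries compared. The study asked whether loss of Ceacam1, a cell adhesion molecule of endothelial, epithelial and immune cells, alters the eye. Libraries made with SMART-Seq, a method that amplifies whole transcripts from little RNA, were sequenced from choroids (with the pigment epithelium and sclera attached) of wild type mice without laser (4 libraries), Ceacam1-/- mice without laser (4), wild type mice with laser (9) and Ceacam1-/- mice with laser (7). Ceacam1-/- mice lacked exons 1 and 2 of Ceacam1 in the whole body, were compared with wild type littermates on a C57BL/6J background and were 6 to 8 weeks old unless stated otherwise. Mice of both sexes were used, and the labels give no sex for a library. Laser treatment placed 6 spots on each eye (150 mW, 200 μm, 100 ms) to induce choroidal neovascularization, the growth of new vessels from the choroid. The time between laser and tissue collection is not given in the sources used here.

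MHC class II molecules are pairs of an alpha and a beta chain that display peptides from endocytosed proteins to CD4 T cells. The invariant chain occupies the peptide groove of a new pair on its way to the endosome, cathepsins cut it down to a short remnant, and the DM molecule exchanges this remnant for antigenic peptides. Dendritic cells, macrophages and B cells carry these molecules, and the choroid is known for a dense network of resident macrophages and dendritic cells. Ciita does not bind DNA itself but joins a complex of RFX, CREB and NF-Y proteins on the X and Y boxes of class II promoters, and Ciita is induced in many cell types by interferon-gamma.

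The X and Y boxes are shown here because these promoter elements are shared by the chains, the invariant chain and the peptide editor. RefSeq promoters (GRCm38.p6, 250 bases before to 50 after the RefSeq start of the gene) were found for 4 of the 8 genes, H2-Aa, H2-Eb1, H2-DMa and H2-DMb1. The stretch around both boxes was placed on GRCm39 at chr17:34506826-34506896 (minus strand) for H2-Aa, chr17:34524732-34524801 (plus strand) for H2-Eb1 and chr17:34372053-34372123 (plus strand) for H2-DMb1. In the GENCODE annotation these stretches end 29 bases before the canonical transcript of H2-Aa and 12 before that of H2-Eb1. The latter is inside the wider H2-Eb1 gene, in introns of 2 of its 21 transcripts that start farther upstream. The former lies within the span of the H2-Eb1 gene, which is on the opposite strand. For H2-DMb1 the GENCODE start, 34372046, is upstream of the RefSeq one, so that its stretch falls in the first exon there and is not printed. The other pair is shown 5′ to 3′ on the strand of the gene, with the X box letters and then the Y box letters in capitals.
H2-Aa: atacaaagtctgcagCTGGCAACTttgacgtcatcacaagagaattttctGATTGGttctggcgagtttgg
H2-Eb1: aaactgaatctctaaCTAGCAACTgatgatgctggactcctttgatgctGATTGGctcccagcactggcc
The starts of the 2 boxes lay 35, 34 and 35 bases apart in H2-Aa, H2-Eb1 and H2-DMb1. The searched X letters, CTNGNAACT, were read off these 3 promoters, so their presence there is not a finding. On either strand they stood in 3.47% of 32851 RefSeq promoters, and the Y letters GATTGG in 14.6%. Both in this order on the strand of the gene, with starts at most 50 bases apart, stood in 9 promoters (0.0274%), of which H2-Aa, H2-Eb1 and H2-DMb1 were 3. In the H2-DMa promoter neither set of letters was found.

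A group of 5 libraries stood apart from the others by their content of photoreceptor RNA. The sum of 8 photoreceptor genes was 1001686 normalized counts in Ceacam1-/- laser library 18, 939958 in library 14 and 536509 in library 15. It was 534528 in wild type library 21 and 581747 in Ceacam1-/- library 23, both without laser, while the remaining 19 libraries held between 6847 and 255254. The choroid as dissected also held skeletal muscle RNA, with sums of 8 muscle genes between 16567 and 1256991, and lens RNA. Choroidal endothelial genes (7 of 7) and genes of the retinal pigment epithelium (6 of 6) were above 0 in all libraries. Laser libraries 14, 15 and 18 had the lowest sums of retinal pigment epithelium genes of all (63238, 49391 and 36815), and their sums of 14 macrophage genes were 16945, 14888 and 9885 against 38784 to 49226 in the other 4 Ceacam1-/- laser libraries. The comparisons of the 8 genes with laser, the laser effects on lists of immune and antigen presentation genes, and the correlations below are also given without these libraries. Differences of gene lists between genotypes were fitted with all libraries.

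Normalized counts summed to between 23704346 and 35094410 per library, with group medians from 25282017 (Ceacam1-/- laser) to 26530696 (Ceacam1-/- no laser). Ceacam1 itself checked the genotype labels. Without laser its normalized counts were 958, 5027, 1242 and 4596 in wild type libraries 21, 22, 26 and 27 and 405, 505, 508 and 1171 in Ceacam1-/- libraries 23, 24, 25 and 28. With laser, means were 1869 ± 2453 (SD, n = 9) for wild type and 373 ± 272 (SD, n = 7) for Ceacam1-/- mice. The genotype groups thus overlapped without laser, through Ceacam1-/- library 28, and neither difference passed the threshold over all genes (limma with Benjamini-Hochberg adjustment, adjusted p = 0.999 without and 0.104 with laser). Values of a whole gene also count reads from the exons that are not deleted. Among laser libraries, Ceacam1-/- library 15 (905 normalized counts) reached into the wild type range, whose lowest value was 774, and the other 6 Ceacam1-/- libraries lay below it. Laser libraries carry the numbers 1 to 19 and libraries without laser 21 to 28, and the labels give no batch or order of processing, so a batch along these numbers, if there was one, and laser cannot be told apart. The labels do not say which libraries came from separate mice, and p-values measure the spread between these libraries.

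Cd74 was the most abundant of the 8 genes per length of transcript and Ciita the least. In wild type choroid without laser, levels per kilobase of the canonical transcript were 3977 ± 1297 normalized counts for Cd74, 1704 ± 514 for H2-Ab1, 1555 ± 547 for H2-Aa and 825 ± 250 for H2-Eb1 (SD, n = 4). The peptide editor followed at 282 ± 113 for H2-DMb1 and 183 ± 51.6 for H2-DMa, then Cd86 at 25.9 ± 14.2 and Ciita at 12.1 ± 3.86. The levels thus fell into a high tier (the chains and the invariant chain), a middle tier (DM) and a low tier (Cd86 and Ciita). Within a library, Cd74 exceeded H2-Ab1 in 24 of 24 libraries by a median of 2.16-fold, H2-Ab1 exceeded H2-Aa in 23 by 1.24-fold, and H2-Aa exceeded H2-Eb1 in 24 by 1.80-fold. The least firm steps were H2-DMb1 over H2-DMa, in 19 of 24 libraries, and Cd86 over Ciita, in 22 of 24. Over groups, the means of H2-Ab1 and H2-Aa, and those of the 2 DM chains, differed by less than the larger SD of the pair in the groups without laser.

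**Figure D1:**
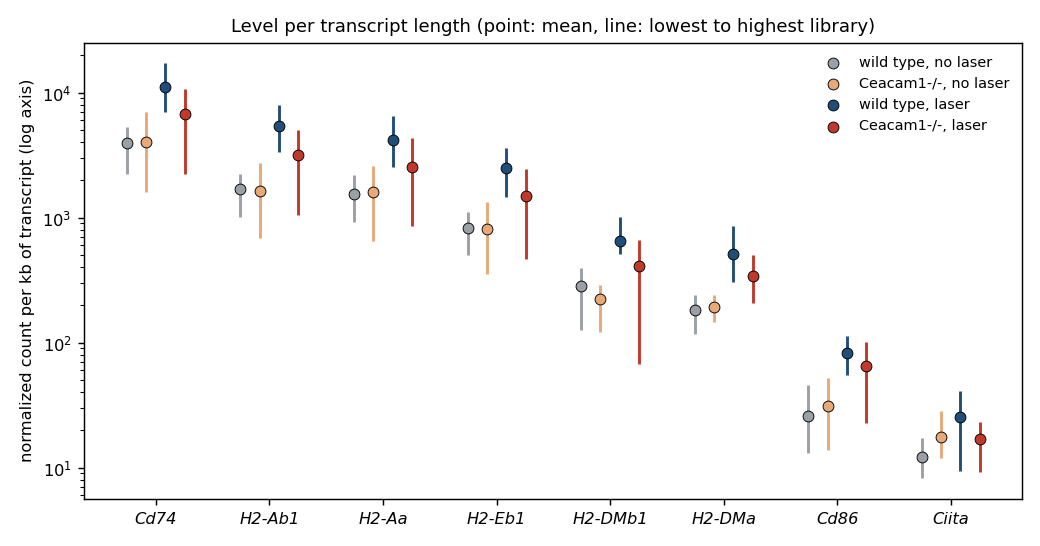
Normalized counts per kilobase of canonical transcript (log axis) for the 8 genes in the 4 groups. Points are group means and lines run from the lowest to the highest library. In all groups the order begins with Cd74, and the mean of Cd74 in wild type was 3977 without and 11041 with laser.

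Laser was compared with no laser in each genotype in 1 limma model of all 24 libraries, on log2 of the normalized count plus 1. In wild type choroid, 6 of the 8 genes rose with laser: the 3 chains, Cd74, H2-DMa and Cd86, by between 2.71-fold (H2-Aa) and 3.45-fold (Cd86). Over all 19950 genes tested, 5.28% passed the threshold (adjusted p under 0.05) and 4.23% did so upward. Groups did not overlap for 7 of the 8 genes, all but Ciita, where 4.5% of all genes were higher in every laser library. The median log2 fold change was 1.48 over the 8 genes and -0.10 over all genes. Markers of other tissues also differed, with 8 of 8 photoreceptor genes (median -1.48) and 8 of 8 skeletal muscle genes (-0.94) lower. Higher were 7 of 7 endothelial genes (0.42) and 6 of 7 lens genes (2.32). None of these passed the threshold by limma, and their part was not tested.

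H2-Ab1 (ENSMUSG00000073421, chromosome 17 from 34476663 to 34488393 on GRCm39, plus strand) encodes the beta chain of the I-A molecule. Its normalized counts in wild type libraries 21, 22, 26 and 27 without laser were 1220, 2046, 2691 and 2304. With laser the lowest, median and highest of 9 libraries were 4089, 5918 and 9749. Every laser library lay above every library without laser, and library 21, rich in photoreceptor RNA, was the lowest. H2-Ab1 rose by 1.67 on the log2 scale (standard error 0.36), with an adjusted p of 0.00582 (limma with Benjamini-Hochberg adjustment).

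H2-Aa (ENSMUSG00000036594, chromosome 17 from 34493404 to 34506798, minus strand) encodes the alpha chain that pairs with H2-Ab1. In the wild type libraries without laser it had 1034, 1518, 2465 and 2001 normalized counts, and 2893, 4156 and 7345 (lowest, median, highest) with laser. As for its partner, the groups did not overlap, and the rise was 1.44 on the log2 scale (standard error 0.36, adjusted p = 0.0203 by limma). H2-Eb1 (ENSMUSG00000060586, chromosome 17 from 34504236 to 34535648, plus strand) encodes the beta chain of the I-E molecule. It had 847, 1466, 1881 and 1407 normalized counts without laser, and 2500, 3990 and 6142 with laser. This rise, 1.59 on the log2 scale (standard error 0.36, adjusted p = 0.00933 by limma), also left no overlap between the groups. The H2-Aa and H2-Eb1 genes overlap by 2563 bases on opposite strands in the annotation, and no source used here says whether strand was used in counting, so the split of reads there is uncertain. H2-Ea, which encodes the alpha partner of H2-Eb1 and is known to be inactive in C57BL/6 mice, was listed at 0 in all 24 libraries.

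Cd74 (ENSMUSG00000024610, chromosome 18 from 60936899 to 60945731, plus strand) encodes the chaperone of the class II pair. Normalized counts were 3180, 5657, 7588 and 6340 in wild type libraries without laser, and 10009, 15197 and 24573 with laser. The lowest laser library lay above the highest library without laser. The difference was 1.49 on the log2 scale (standard error 0.37, adjusted p = 0.0196, limma).

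The peptide editor is a pair of chains, and only H2-DMa passed the threshold. H2-DMa (ENSMUSG00000037649, chromosome 17 from 34338515 to 34358958, plus strand) had 135, 206, 279 and 222 normalized counts without laser and 352, 478 and 992 with laser in wild type. This gene rose by 1.47 on the log2 scale (standard error 0.27, the smallest of the 8 genes, with adjusted p = 0.00186 by limma). H2-DMb1 (ENSMUSG00000079547, chromosome 17 from 34372046 to 34379204, plus strand) had 178, 409, 555 and 444 normalized counts without laser and 723, 782 and 1418 with laser. These groups did not overlap either, yet its log2 fold change of 1.28 carried a standard error of 0.45 in the model of all libraries (adjusted p = 0.0975). In the exact permutation test of the 13 wild type libraries H2-DMb1 reached the smallest p that 9 against 4 can give (two-sided, p = 0.00280), as did the 6 genes past the threshold. H2-DMb2, its near-identical neighbour, had 17.8 ± 6.93 normalized counts without laser and 82.0 ± 32.1 with laser (SD, n = 4 and 9), and the division of reads between the pair is uncertain.

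Ciita (ENSMUSG00000022504, chromosome 16 from 10297923 to 10347694, plus strand) was the exception among the 8. Its normalized counts were 61.6, 92.8, 129 and 77.6 without laser and 70.3, 169 and 305 (lowest, median, highest) with laser in wild type. Of the 9 laser libraries, 6 lay above all libraries without laser, and libraries 11, 16 and 19 lay within their range. The log2 fold change was 0.97 (95% interval 0.25 to 1.70, adjusted p = 0.111 by limma). An exact permutation test of this gene alone gave p = 0.0392 (two-sided, 13 libraries).

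Cd86 (ENSMUSG00000022901, chromosome 16 from 36424044 to 36486443, minus strand) encodes the ligand that engages CD28 on T cells beside the class II signal. It had 35.95, 70.7, 125 and 50.7 normalized counts without laser and 151, 228 and 309 with laser in wild type. The groups did not overlap, and the log2 fold change of 1.79 (standard error 0.39, adjusted p = 0.0069 by limma) was the largest of the 8. Without library 21, the wild type library without laser that is rich in photoreceptor RNA, 2 of the 8 genes passed the threshold in this comparison, where 2.4% of all genes did. Without all 5 libraries rich in photoreceptor RNA, 7 passed, all but Ciita, with log2 fold changes from 0.94 (H2-DMb1) to 1.52 (Cd86), where 8.39% of all genes passed.

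**Figure D2:**
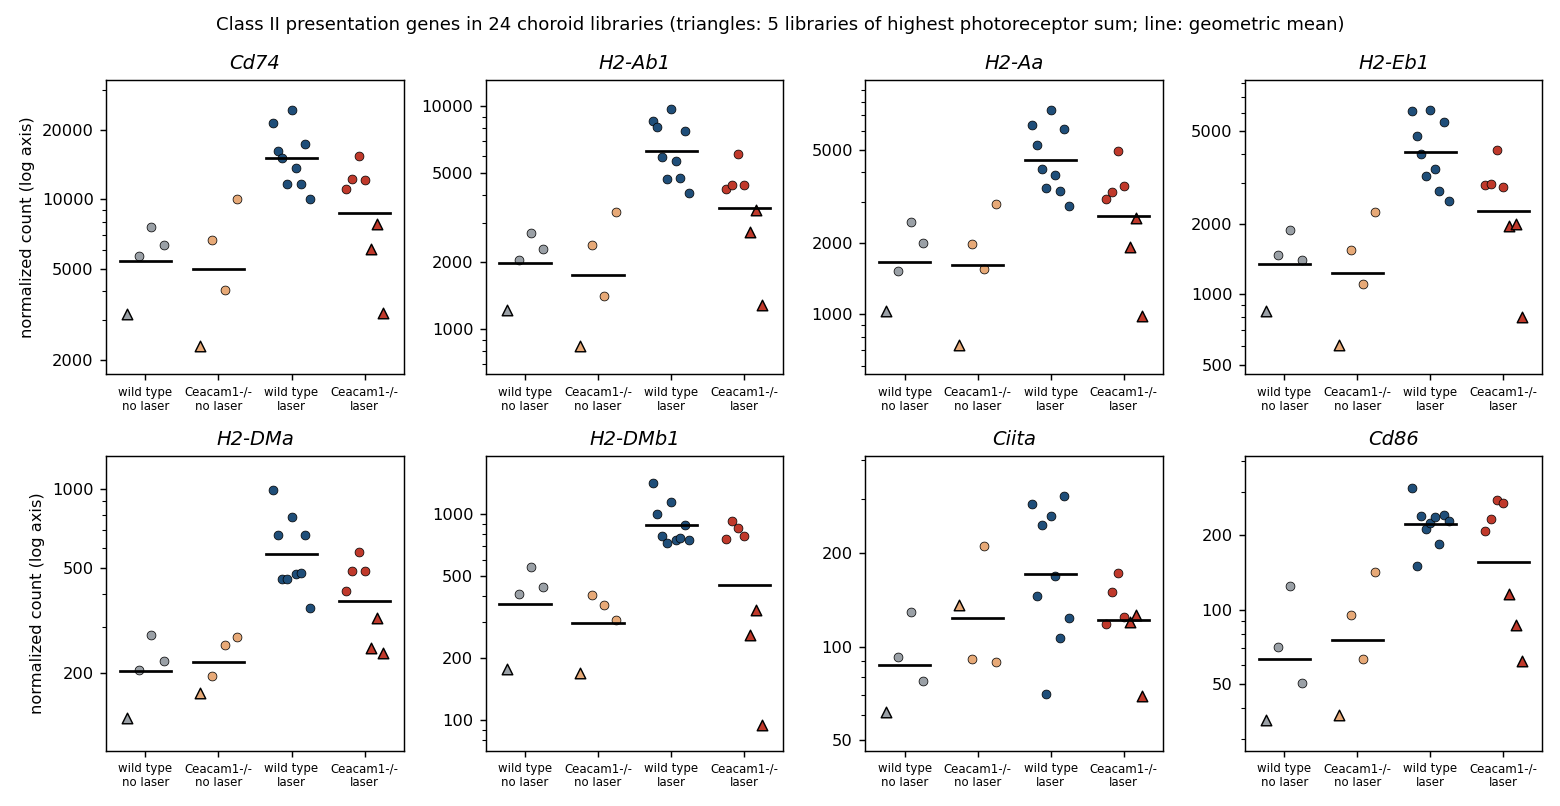
Normalized counts (log axis) of the 8 genes in 24 libraries, 1 point per library. Lines are geometric means and triangles mark the 5 libraries rich in photoreceptor RNA. Wild type laser libraries of Cd74 run from 10009 to 24573, above all wild type libraries without laser, and Ceacam1-/- laser libraries split into 4 high and 3 low.

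In Ceacam1-/- choroid, none of the 8 genes passed the threshold with laser (limma, where 3.72% of 19950 genes passed and 2.07% did so upward). At an unadjusted p under 0.05, 5 of the 8 passed (H2-Ab1, H2-Eb1, Cd74, H2-DMa and Cd86), against 20% of all genes. Log2 fold changes were 0.99 for H2-Ab1 (adjusted p = 0.132), 0.88 for H2-Eb1, 0.81 for Cd74, 0.70 for H2-Aa, 0.78 for H2-DMa, 0.61 for H2-DMb1, 1.04 for Cd86 and -0.02 for Ciita. The median over the 8 genes was 0.79 and over all genes 0.02. In the same comparison 8 of 8 photoreceptor genes (median 2.23) and 5 of 7 lens genes (2.53) were higher. Lower were 6 of 6 genes of the retinal pigment epithelium (-1.61), 8 of 8 of skeletal muscle (-2.07) and 6 of 7 of endothelium (-0.13). None of these passed the threshold by limma, and their part was not tested. Without library 23, the lowest of the group without laser in Cd74 and H2-Ab1, the median over the 8 was 0.49, with Cd74 at 0.44 and H2-Aa at 0.33, and none of the 8 passed by limma, where 12.5% of all genes did. The groups overlapped for all 8 genes, where 1.17% of all genes were higher in every laser library.

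The individual libraries fell into 2 sets. Cd74 had 2317, 6656, 4036 and 10065 normalized counts in Ceacam1-/- libraries 23, 24, 25 and 28 without laser. With laser it had 11087, 12312, 15451 and 12138 in libraries 4, 5, 6 and 7 but 6115, 7820 and 3214 in libraries 14, 15 and 18. The 4 former lay above every library without laser, and the 3 latter, those rich in photoreceptor RNA, within that range. H2-Ab1 had 839, 2400, 1408 and 3348 normalized counts without laser, and 4269, 4461, 6116, 4462, 2739, 3444 and 1285 in laser libraries 4, 5, 6, 7, 14, 15 and 18. Cd86 had 37.7, 95.05, 63.4 and 142 without laser and 207, 233, 276, 270, 116, 86.8 and 62.3 with laser, in the same order of libraries. H2-DMb1 was at 757 to 924 in libraries 4 to 7 and at 259, 343 and 95.2 in libraries 14, 15 and 18. Ciita showed no such split, with 118, 150, 173, 125, 120, 127 and 69.3 normalized counts in the 7 laser libraries and 136, 91.5, 211 and 88.9 without laser.

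Without laser libraries 14, 15 and 18, 7 of the 8 genes, all but Ciita, passed the threshold upward in Ceacam1-/- choroid, where 10.2% of all genes passed. Log2 fold changes then ranged from 1.15 (H2-DMa, adjusted p = 0.0116) to 1.69 (Cd86, adjusted p = 0.00388), and Ciita was at 0.17 (adjusted p = 0.856). Without all 5 libraries rich in photoreceptor RNA, 6 passed, all but Ciita and H2-Aa (14.9% of all genes), with lower log2 fold changes of 1.09 for H2-Ab1, 1.02 for H2-Eb1, 0.97 for Cd74, 0.80 for H2-Aa, 1.02 for H2-DMa, 1.21 for H2-DMb1 and 1.36 for Cd86. With the mean log2 level of the photoreceptor genes as a covariate, 6 passed, all but Ciita and H2-DMb1 (4.74% of all genes). Leaving out these libraries and adding this covariate were chosen after the values had been seen.

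The difference between the 2 laser effects was tested as an interaction of laser and genotype. For no gene of the 19950 was it past the threshold by limma (0%), and 6.22% of them had an unadjusted p under 0.05, none of the 8 among these. The laser effect on the 8 genes was smaller in Ceacam1-/- than in wild type mice by between 0.67 (H2-DMb1) and 0.99 (Ciita) on the log2 scale, with adjusted p from 0.640 to 0.709. In the same contrast 14 of 14 macrophage genes were lower (median -0.69, against -0.70 over the 8) and 8 of 8 photoreceptor genes higher (median 3.68). None of these passed the threshold by limma, their part was not tested, and both medians are over all 24 libraries. Mean log2 levels of the macrophage list were 10.97 to 11.27 in Ceacam1-/- laser libraries 4 to 7. They were 9.18 to 9.73 in libraries 14, 15 and 18 and 10.68 to 11.34 in wild type laser libraries. For photoreceptors these ranges were 9.34 to 13.26, 15.21 to 16.02 and 8.96 to 13.76. With the photoreceptor covariate the median over the 8 was 0 and Cd74 was at 0.06. The 95% interval of this difference for Cd74 ran from -1.79 to 0.43. Without libraries 14, 15 and 18 the difference was -0.15 for Cd74, -0.10 for Cd86 and 0.20 for H2-DMb1, and it was -0.80 for Ciita (adjusted p = 0.999 each). It was -0.26 for Cd74, -0.41 for H2-Aa and -0.59 for Ciita without all 5 libraries rich in photoreceptor RNA, with a median over the 8 of -0.30. Without library 23 alone it was larger, at -1.05 for Cd74 and with a median of -1.04 against -0.70 over all libraries, while the median was -0.45 without library 28 (Cd74 at -0.34) and -0.48 without library 18 or without library 21. Again none of the 8 passed in any of these fits by limma, where 0% of all genes did. A difference of the laser effect between genotypes was not detectable with these libraries.

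Genotype was first compared without laser, the comparison of the study. The study fitted DESeq2 with sex as a covariate and reported a limited set of differentially expressed genes there. The fit used here was limma without a term for sex, so its gene count cannot be set directly against that of the study. None of the 8 genes differed between Ceacam1-/- and wild type choroid by limma, where 0% of 20057 genes passed the threshold and 1.53% had an unadjusted p under 0.05. Log2 fold changes ran from -0.30 (H2-DMb1) to 0.50 (Ciita), and all 8 had an adjusted p of 0.999. With 4 libraries per group the intervals were wide. For Cd74 the 95% interval was -1.16 to 0.93, for H2-Ab1 -1.16 to 0.81 and for Ciita -0.38 to 1.39. Ceacam1-/- libraries 23 and 25 were above all wild type libraries in Ciita (136 and 211 normalized counts), and the exact permutation test gave p = 0.200 (two-sided, the smallest p of 4 against 4 being 0.0286).

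With laser, Ceacam1-/- choroids had lower values of all 8 genes than wild type choroids, by 0.49 (Ciita) to 0.97 (H2-DMb1) on the log2 scale, without a call. Adjusted p lay between 0.136 (H2-Ab1) and 0.317 (Ciita) by limma, where 0.0202% of 19757 genes passed the threshold. At an unadjusted p under 0.05, 6 of the 8 passed, against 22.7% of all genes. Markers of other cells also differed in this comparison, none past the threshold by limma. Lower in Ceacam1-/- choroids were 6 of 6 genes of the retinal pigment epithelium (median -1.48), 8 of 8 of skeletal muscle (-1.33), 7 of 7 of endothelium (-0.53), 13 of 14 of macrophages (-0.51) and 9 of 10 of dendritic cells (-0.54), and higher were 8 of 8 of photoreceptors (1.97). These medians are over all 16 libraries. Mean log2 levels of macrophage genes were 10.97 to 11.27 in Ceacam1-/- libraries 4 to 7, against 10.68 to 11.34 in wild type. For dendritic cells these ranges were 6.6 to 6.93 and 6.56 to 7.13, for endothelium 11.59 to 12.09 and 11.62 to 12.28. For photoreceptors they were 9.34 to 13.26 and 8.96 to 13.76, for pigment epithelium 12.8 to 13.59 and 12.81 to 14.27. For skeletal muscle they were 13.25 to 14.89 and 13.39 to 15.62. The part of these markers was not tested. Cd74 averaged 15800 ± 4807 normalized counts over the 9 wild type and 9734 ± 4207 over the 7 Ceacam1-/- libraries (SD), and H2-Ab1 averaged 6593 ± 1995 and 3825 ± 1529. For 7 of the 8 genes, libraries 14, 15 and 18 were the only Ceacam1-/- libraries below all wild type ones. Without these 3 libraries the difference by limma was -0.26 in Cd74 (adjusted p = 0.803) and -0.41 in H2-Ab1 (adjusted p = 0.672). In Cd86 it was 0.15 (adjusted p = 0.898) and in H2-DMb1 -0.11 (adjusted p = 0.929, limma). When each of the 16 libraries was left out in turn, H2-DMb1 ran from -1.14 to -0.60.

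**Figure D3:**
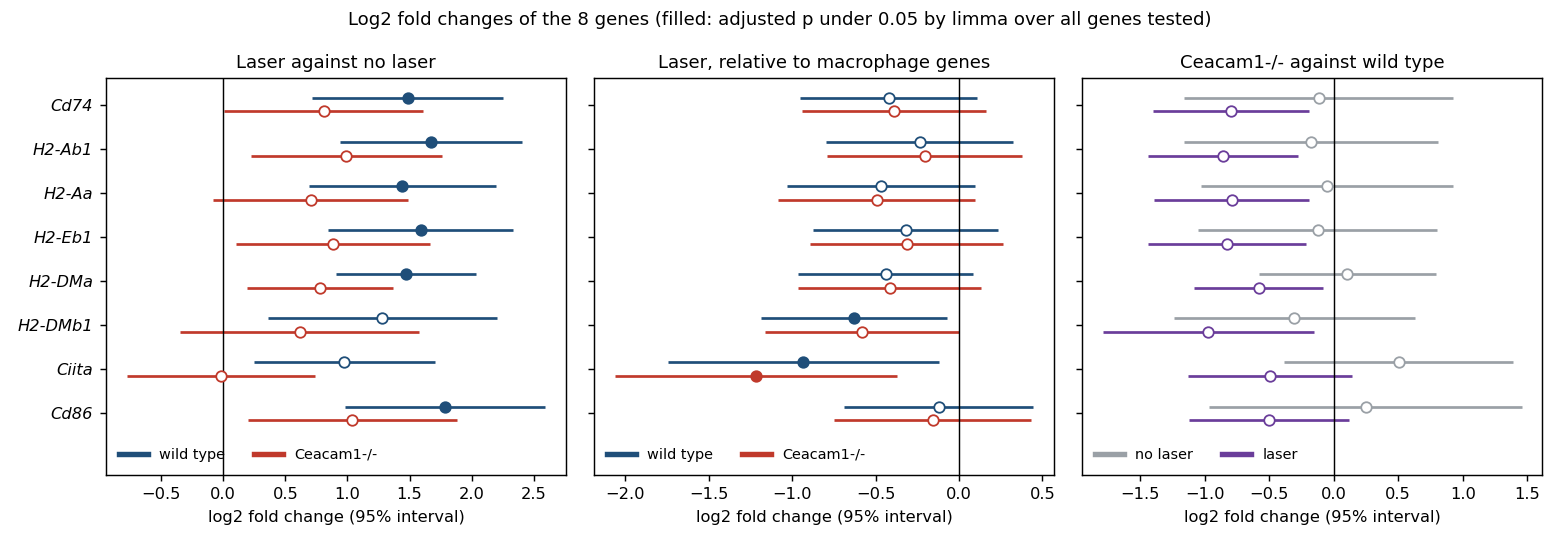
Log2 fold changes of the 8 genes with 95% intervals for laser in each genotype, for laser relative to macrophage genes, and for Ceacam1-/- against wild type. Filled points passed the threshold over all genes tested. In wild type, 6 genes are filled for laser, and in the macrophage panel the intervals of Cd74, the chains, H2-DMa and Cd86 span 0.

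Macrophage markers moved with the class II genes. Of 14 macrophage genes, 11 rose with laser in wild type (median log2 fold change 1.96) and 6 in Ceacam1-/- choroid (median 1.23). Examples were Fcgr1, a high-affinity Fc receptor (3.16 and 2.67), Cd68, a lysosomal glycoprotein (2.77 and 2.05), Tyrobp, a signalling adaptor (2.39 and 1.56) and Laptm5, a lysosomal membrane protein (2.13 and 1.55), values being log2 fold changes in wild type and Ceacam1-/- mice. All 14 were above 0 in every library. The list summed to 8289 to 16877 normalized counts without laser and 29943 to 55814 with laser in wild type, and to 11897 to 14797 and 9885 to 49226 in Ceacam1-/- choroid, and C1qb was its most abundant gene in all 16 laser libraries. Without laser libraries 14, 15 and 18, 12 of the 14 rose in Ceacam1-/- choroid (median 1.76), and without all 5 libraries rich in photoreceptor RNA 12 rose in each genotype (medians 1.76 in wild type and 1.87 in Ceacam1-/- choroid). Since RNA of the whole tissue was sequenced, more cells of a type and more RNA per cell cannot be told apart.

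The class II genes were then taken relative to the macrophage genes, by subtracting the mean log2 level of the 14 genes from each library. On this scale the median gene moved by -2.01 with laser in wild type, and 89.3% of all genes passed the threshold, 88.7% downward. Cd74 was at -0.42 (95% interval -0.95 to 0.11), H2-Ab1 at -0.24, H2-Eb1 at -0.32, H2-Aa at -0.47, H2-DMa at -0.44 and Cd86 at -0.12, none of them past the threshold. Ciita (-0.93, adjusted p = 0.0301) and H2-DMb1 (-0.63, adjusted p = 0.0332) fell relative to macrophage genes by limma. Neither call held without wild type library 22 or without library 26, where 0 of the 8 passed (85.5% and 90.8% of all genes), only 1 of them held when library 11, 13, 16, 21 or 27 was left out singly, and that of Ciita alone held with quantile normalization. Without the 5 libraries rich in photoreceptor RNA, 4 passed, Ciita (-0.90, adjusted p = 0.0337), H2-DMb1 (-0.78, adjusted p = 0.000662), H2-Aa (-0.50, adjusted p = 0.0307) and Cd74 (-0.49, adjusted p = 0.0295), and 88.8% of all genes did. In Ceacam1-/- choroid, where the median gene moved by -1.18 and 55.8% of genes passed (55% downward), Ciita fell (-1.22, adjusted p = 0.0168), and the other 7 ranged from -0.58 (H2-DMb1) to -0.16 (Cd86). Without libraries 14, 15 and 18, 3 of the 8 (Ciita, H2-Aa and H2-DMa) passed in Ceacam1-/- choroid, and 84.7% of all genes did. Without all 5 libraries rich in photoreceptor RNA, 7 passed there, all but Cd86 (82.7% of all genes), and without library 25 none did (40.1% of all genes). Without library 23, 4 passed (45.2% of all genes), and without library 15, 3 did (64.7%). With each library left out, Cd74 in Ceacam1-/- choroid ran from -0.72 to -0.16 and H2-Ab1 from -0.52 to -0.004. The macrophage list itself is the reference of this scale, and its genes were not equal in their laser effect, from 0.43 (Mertk) to 3.16 (Fcgr1) on the log2 scale in wild type. Whether macrophages account for the difference was not tested.

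**Figure D4:**
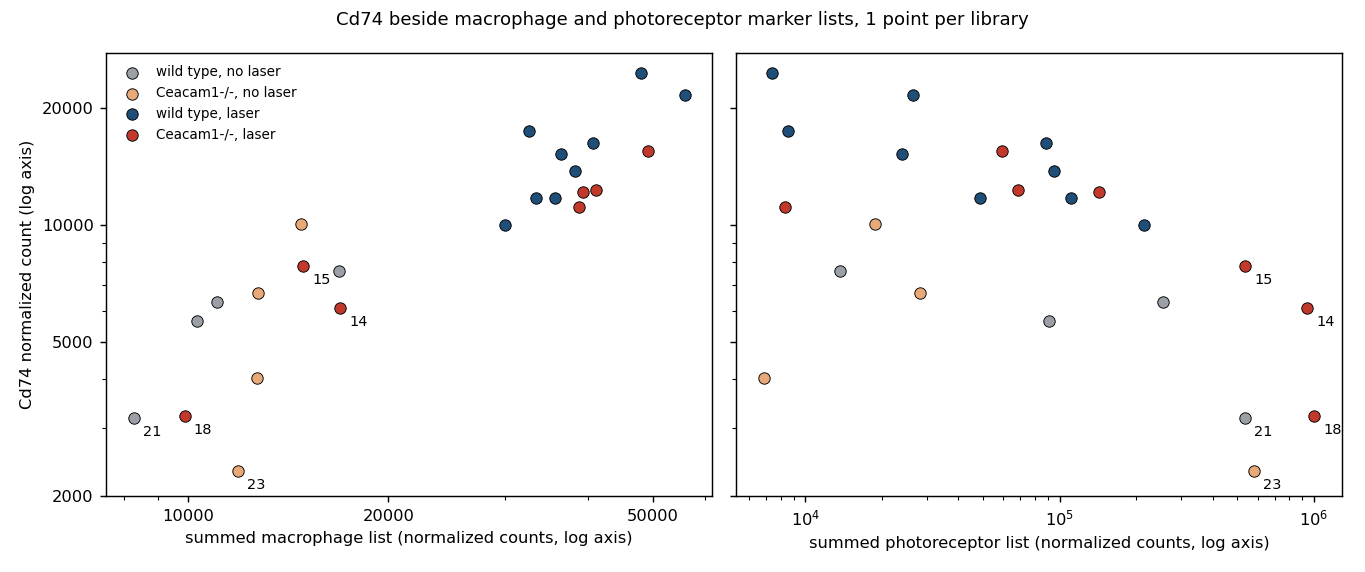
Cd74 normalized counts against the summed macrophage list (left) and the summed photoreceptor list (right), 1 point per library, all axes logarithmic. The 5 numbered libraries are those rich in photoreceptor RNA. Laser libraries 14, 15 and 18 lie within the range without laser in Cd74, and their macrophage sums (16945, 14888 and 9885) lie below those of the other laser libraries, the lowest of which is 29943.

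Other cells that present antigen were followed by their markers. Of 10 dendritic cell genes, 6 rose with laser in wild type (median 1.43) and 2 in Ceacam1-/- choroid (median 1.12). Itgax, the integrin CD11c (3.24 and 2.18), and Ccr7, a receptor that guides migration to lymph nodes (3.21 and 2.19), rose in both. Clec10a, a lectin (1.43), and Flt3, the receptor of a dendritic cell growth factor (1.57), rose in wild type and had log2 fold changes of 0.90 and 1.17 in Ceacam1-/- mice. Zbtb46, the most abundant gene of this list and also known from endothelium, had log2 fold changes of -0.13 and -0.39. The list summed to 735 to 1402 normalized counts without laser and 1408 to 2006 with laser in wild type. B cell genes were low, at 45.1 to 366 normalized counts summed over 6 genes. Of the 5 tested, Cd22, a lectin that restrains B cell receptor signalling, rose in wild type (1.81, adjusted p = 0.0339 by limma) and was at -0.07 in Ceacam1-/- choroid. T cell genes summed to 74.6 to 514, with Trac or Cd4 the most abundant in each library. None of 6 tested passed in either genotype by limma (at an unadjusted p under 0.05, 1 passed in each, Trac, against 20% of all genes in each). Without laser libraries 14, 15 and 18, 4 of 10 dendritic cell genes rose in Ceacam1-/- choroid (Itgax, Ccr7, Clec10a and Cd209a, list median 1.33), as did 2 of 7 T cell genes (Trac, 2.04, and Cd3e, 1.92), and none of 5 B cell genes passed. Without all 5 libraries rich in photoreceptor RNA, 5 dendritic cell genes rose in wild type and 4 in Ceacam1-/- choroid, Cd22 rose in wild type (1.84) and Trac in Ceacam1-/- choroid (1.51). The part of these cells in the class II result was not tested.

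Enzymes that prepare the invariant chain and the antigen gave calls in both genotypes. Of 8 genes of antigen processing, 5 passed upward in wild type (median 1.24) and the same 5 in Ceacam1-/- choroid (median 1.29). Ctss, cathepsin S, which cuts the invariant chain, had 1618 ± 344 normalized counts without and 12555 ± 3213 with laser in wild type (SD, n = 4 and 9), a log2 fold change of 2.94 (adjusted p = 2.18e-05 by limma). In Ceacam1-/- choroid its log2 fold change was 2.17 (adjusted p = 0.00228). Ifi30, a thiol reductase that opens disulphide bonds of antigens, rose by 1.89 in wild type and 1.40 in Ceacam1-/- mice, Ctsb, cathepsin B, by 1.74 and 1.55, and Lgmn, an asparagine endopeptidase, by 1.14 and 0.84. The fifth, named after its value was seen, was Ctsl (1.23 and 1.18). Of the 8, 6 passed upward in Ceacam1-/- choroid without laser libraries 14, 15 and 18 (median 1.57, Ctss at 2.86), and without all 5 libraries rich in photoreceptor RNA 6 did in wild type and 8 in Ceacam1-/- choroid. These enzymes also serve lysosomes in general.

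Genes of the proteins bound to the X and Y boxes gave no call. None of 7 genes of the promoter complex passed in either genotype by limma, with medians of -0.10 in wild type and 0.22 in Ceacam1-/- choroid. Nfya (0.52, adjusted p = 0.0687) had an unadjusted p under 0.05 in wild type, as did Rfx5 (0.67, adjusted p = 0.138) in Ceacam1-/- choroid, against 20% of all genes in each. Rfx5 was at -0.34 in wild type. Ifng, the cytokine that induces Ciita, had at most 5.93 normalized counts and was above 0 in 9 of 24 libraries. Of 8 genes of its signalling tested, Irf8, a transcription factor of macrophages and dendritic cells, rose in wild type (1.97, adjusted p = 0.00301 by limma) and was at 1.06 in Ceacam1-/- mice (adjusted p = 0.136). Ifngr1, a chain of the interferon-gamma receptor, was at 0.46 and 0.23 and Jak1, a kinase bound to that receptor, at 0.19 and 0.31, with no call in either genotype. Without laser libraries 14, 15 and 18, none of the promoter complex passed in Ceacam1-/- choroid by limma, and 4 of the 8 signalling genes rose, among them Irf8 (1.87) and Ifngr1 (0.54). Without all 5 libraries rich in photoreceptor RNA, Nfyc, a subunit of NF-Y, fell in Ceacam1-/- choroid (-0.44, adjusted p = 0.0346, limma), and 2 of the signalling genes rose there and 1 in wild type, Irf8 in both.

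Costimulation and the class I pathway were followed next. Of 6 costimulation genes tested, Cd40, the receptor of a helper T cell signal, and Cd83, a surface protein of mature dendritic cells, rose in wild type (1.61 and 1.19), and Cd83 rose in Ceacam1-/- choroid (1.10). Cd80, the relative of Cd86, was at 0.49 and 0.12 (adjusted p = 0.458 and 0.887), and Cd28, the receptor of both, at 1.16 and -0.11. None of 9 class I genes passed in either genotype by limma, although all 9 were higher with laser in both. Their medians were 0.69 (wild type) and 0.46 (Ceacam1-/-), with H2-D1, a class I heavy chain, at 0.81 and 0.58, B2m, the shared light chain, at 0.75 and 0.18, Psmb9, a subunit of the immunoproteasome, at 0.88 and 0.48 and Tapbp, which loads peptide on class I, at 0.37 and 0.61. At an unadjusted p under 0.05, 4 of the 9 passed for wild type choroid and 1 for Ceacam1-/- choroid, against 20% of all genes in each. Without laser libraries 14, 15 and 18, Cd40 (1.72), Cd83 (1.54) and, of the class I genes, Tapbp (0.76, adjusted p = 0.0499 by limma) rose in Ceacam1-/- choroid. Without all 5 libraries rich in photoreceptor RNA, Cd40 and Cd83 rose in both genotypes and no class I gene passed in either by limma.

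The remaining genes of the class II region were far less abundant. H2-DMb2 rose in wild type by 2.14 (adjusted p = 0.000296 by limma) and H2-Oa, a chain of the DO molecule that restrains DM, by 2.30 (adjusted p = 0.00622). In Ceacam1-/- choroid H2-DMb2 was at 0.64 and H2-Oa at 0.58, neither past the threshold. H2-Ob, the other DO chain, was at 1.11 and 0.29 (adjusted p = 0.283 and 0.822). H2-Eb2 had at most 19.9 normalized counts and was not tested. H2-DMb2, H2-Oa and H2-Ob had no call in Ceacam1-/- choroid without laser libraries 14, 15 and 18, and without all 5 libraries rich in photoreceptor RNA H2-DMb2 (1.85) and H2-Oa (1.81) rose in wild type.

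The 8 genes also varied together between libraries of 1 group. With group means removed, Cd74 was related to H2-Ab1 over 24 libraries with Pearson's r = 0.989 and Spearman's ρ = 0.975 (permutation within groups, p = 1e-05, the smallest that 100000 permutations can give, and 1.7e-05 adjusted over 7 relations). For H2-Aa r was 0.981 and ρ 0.965, and for H2-Eb1 0.978 and 0.967, with the same p-values. H2-DMb1 (r = 0.861, ρ = 0.842), Cd86 (0.846 and 0.807) and H2-DMa (0.837 and 0.903) followed, with permutation p of at most 7e-05. Ciita was related least (r = 0.428, ρ = 0.439, permutation p = 0.030 and 0.039). Without the 2 libraries farthest from the median of Cd74, r was 0.981 for H2-Ab1, 0.967 for H2-Aa, 0.963 for H2-Eb1, 0.838 for H2-DMa, 0.784 for H2-DMb1, 0.757 for Cd86 and 0.398 for Ciita. Over the 16 laser libraries alone Ciita had an r of 0.714 and a ρ of 0.724 (permutation p = 9e-05 and 0.00084). Without the 5 libraries rich in photoreceptor RNA, r over 19 libraries was 0.978 for H2-Ab1, 0.954 for H2-Eb1, 0.949 for H2-Aa, 0.741 for H2-DMa, 0.570 for H2-DMb1, 0.566 for Cd86 and 0.364 for Ciita, and the last no longer passed (permutation p = 0.22, and 0.17 for ρ). The genes of a library share its dissection and RNA composition, photoreceptor RNA included, and the part of these in the correlations was not tested.

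Ratios between the genes of the high tier spread less than those of the middle and low tiers. Cd74 per H2-Ab1, both per kilobase, lay between 1.70 and 2.55 over all 24 libraries, and H2-Eb1 per H2-Ab1 between 0.413 and 0.564. H2-Aa per H2-Ab1 spread over 1.7-fold, from 0.697 in wild type laser library 2 to 1.19 in Ceacam1-/- library 25. H2-DMb1 per H2-DMa spread over 5.33-fold, from 0.329 in Ceacam1-/- laser library 18 to 1.75 in wild type laser library 19. Ciita per H2-Ab1 spread over 10.9-fold, from 0.00242 in wild type laser library 11 to 0.0263 in Ceacam1-/- library 23.

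The genes most like the mean log2 level of H2-Aa, H2-Ab1, H2-Eb1 and Cd74, among 19950, were sought over the 24 libraries. Outside the 8, they were Cdk1, a kinase of the cell cycle (r = 0.954), Apbb1ip, an adaptor of integrin activation (0.943), Cks1b, a partner of cell cycle kinases (0.939), Cebpa, a transcription factor of myeloid cells (0.938), and Abracl (0.938). With group means removed they were Dap (0.926), Cd52, a surface glycoprotein of leukocytes (0.915), Cdk1 (0.913), Epsti1 (0.909) and Ifi30 (0.903). Of the 8, H2-DMa (0.933 and 0.850), H2-DMb1 (0.908 and 0.855), Cd86 (0.903 and 0.818) and Ciita (0.615 and 0.471) lay below these genes on the same measures over 24 libraries. Without the 5 libraries rich in photoreceptor RNA, the 5 former genes were at 0.888 (Cebpa) to 0.930 (Apbb1ip) and the 5 latter, with group means removed, at 0.773 (Cdk1) to 0.931 (Cd52), over 19 libraries. H2-DMa was then at 0.942, above the 5 former, and at 0.802, above Dap, Epsti1 and Cdk1, while H2-DMb1 (0.878 and 0.612), Cd86 (0.834 and 0.513) and Ciita (0.590 and 0.436) lay below. These correlations describe the libraries and carry no test.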

How the data were processed

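RNA of 24 choroids was measured. The authors prepared SMART-Seq libraries from about 10 ng of RNA, checked reads with FastQC 0.11.5, pseudo-aligned them to GRCm39 (release M35) with Salmon 1.10.3 and imported them with tximport 1.32.0 into DESeq2 1.44.0 (versions from the submitters' processing notes and the study's methods). The deposited signal values are normalized counts, estimated reads that the authors had normalized between libraries. They are not whole reads: per library, 34.1% to 77.6% of low values came within 5% of a whole number of reads, so no count test was run. The same steps put the depth roughly between 21700000 and 45900000 reads per library, an uncertain estimate given those shares.

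Normalized counts, on the log2 scale with a pseudocount of 1, were compared with limma 3.58.1 (trend, R 4.3.3) for genes with a mean of at least 10, with Benjamini-Hochberg adjustment over all genes tested and a threshold of 0.05. A fold change on this scale understates the change of low genes. Laser effects and their interaction came from all 24 libraries, genotype from the 8 libraries without and the 16 with laser. Exact permutation tests of single genes were two-sided (scipy 1.17.1). The fit was tested on simulated data. Python 3.11.15 with pandas 2.3.3, numpy 2.4.6 and matplotlib 3.10.9 made tables and figures. Groups came from the sample labels. Gene positions are from GENCODE on GRCm39, which matched 99.1% of identifiers, and promoters from RefSeq.

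The 8 genes, the gene lists and the tests were chosen with earlier results of these data known. Besides the 8 genes, the text names Ceacam1, at most 4 genes per list by lowest p in either laser comparison, and the 5 genes most like the class II mean with and without group means. Outside this rule it names C1qb, Mertk, Zbtb46, Cd209a, Cd4, Ctsl, Nfyc, Ifng and H2-Eb2, chosen after their values were seen, and some genes that the rule names are not reported here. Alternatives were pseudocounts of 0.5 and 10, no filter or a mean of at least 50, quantile and upper-quartile scaling, limma without trend or with robust variances, array weights, a covariate of Y-linked genes, fits with fewer or more groups, and omission of each library in turn. Fits, lists and correlations without libraries 14, 15, 18, 21 and 23 (or 14, 15 and 18), fits with a photoreceptor covariate, and the ratio tests, were chosen after the values were seen.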

Additional observations from a re-analysis of the deposited data

Results flagged for a closer look

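Ciita in Ceacam1-/- laser library 18, at 69.3 normalized counts, lay below the other 6 libraries of its group (118 to 173), with a gap of 0.581 of the group's range on the log2(value + 1) scale against a critical value of 0.568. It was the only such value among 32 groups of values checked. Chance alone gives such a value in about 1 of 20 groups, so 1 among 32 is no more than chance would give. Library 18 also had the highest photoreceptor sum of all libraries (1001686), and the part of that in the value was not tested.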

How the results depend on the processing

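No paired analysis was possible because the labels name no mouse, litter or eye for a library. In wild type, 6 of the 8 genes passed with laser under each alternative of pseudocount, filter, scaling, variance model and Y-linked covariate, 7 with only the 2 groups in the fit and 8 with array weights, and 2 to 7 when single libraries were left out (2 without library 21, 5 without library 22). Genes past the threshold then numbered 479 (without library 21) to 1162, 554 without library 27, and 6505 with array weights and 2274 with only the 2 groups in the fit, against 1053. In Ceacam1-/- choroid 0 to 1 of the 8 passed with each library left out, 7 with array weights, 6 without the 5 libraries rich in photoreceptor RNA, 7 without libraries 14, 15 and 18, and 6 with the photoreceptor covariate. All genes past the threshold there numbered 148 (without library 25) to 2488 (without library 23), 255 without library 24, 466 without library 5, 38 with only the 2 groups and 3551 with array weights, against 742. For genotype with laser they numbered 4 to 61 with libraries left out, 2 with a mean of at least 50, 9 with all 24 libraries in the fit, 297 with array weights and 2 without libraries 14, 15 and 18, against 4.

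Relative to macrophage genes, 2 of the 8 passed the threshold in wild type, where 89.3% of all genes did. The count was 1 with quantile normalization (87.1% of all genes), 7 with array weights (95.1%) and 4 without the 5 libraries (88.8%). It was 0 to 2 with each library left out, where 81.3% to 90.8% of all genes passed. In Ceacam1-/- choroid the count was 1 (55.8% of all genes), 8 with array weights (88.6%) and 7 without the 5 libraries (82.7%). It was 3 without libraries 14, 15 and 18 (84.7%). With each library left out it was 0 to 4, where 40.1% to 69.7% of all genes passed. The cause was not tested.

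Signs that turned belonged to log2 fold changes that had not passed the threshold and did not pass it after turning. Ciita with laser in Ceacam1-/- mice (-0.02) was 0.37 with array weights, 0.22 without the 5 libraries, 0.17 without libraries 14, 15 and 18 and 0.30 with the photoreceptor covariate, and -0.18 to 0.23 with each library left out. The interaction of H2-DMb1 was 0.001 with array weights, 0.27 without the 5 libraries, 0.20 without libraries 14, 15 and 18 and 0.23 with the photoreceptor covariate, with which H2-Aa was 0.009, H2-Eb1 0.031 and Cd74 0.061. For genotype without laser, array weights gave 0.049 for H2-Aa, 0.012 for H2-Ab1, 0.084 for H2-Eb1, 0.053 for Cd74 and -0.005 for H2-DMa. H2-Aa was 0.093 without the 5 libraries, and the photoreceptor covariate gave -0.089 for H2-DMa and -0.11 for Cd86. When single libraries were left out, H2-Aa lay between -0.34 and 0.32, H2-Ab1 between -0.49 and 0.18, H2-Eb1 between -0.41 and 0.22, Cd74 between -0.45 and 0.25, H2-DMa between -0.092 and 0.26 and Cd86 between -0.054 and 0.57. For genotype with laser, Cd86 was 0.031 with array weights and 0.15 without libraries 14, 15 and 18 or the 5. Cd86 relative to macrophage genes was 0.17 with array weights in wild type and -0.24 to 0.016 with each library left out, and -0.44 to 0.035 in Ceacam1-/- choroid.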

Other observations

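A pair of ratios within the class II genes differed with laser in both genotypes. They were picked out after the values had been seen, from 7 ratios in 2 genotypes (14 tests). Cd74 per H2-Ab1, both per kilobase, had a median of 2.34 without and 2.08 with laser in wild type, and 2.39 and 2.14 in Ceacam1-/- choroid. It was lower in each laser library than in every library without laser of the same genotype, in 9 of 9 and 7 of 7. In Ceacam1-/- choroid this was nearly a tie, with laser library 5 and library 23 without laser both at 2.34. Log2 differences were -0.19 and -0.18 (two-sided exact permutation p = 0.00280 and 0.00606, the smallest that these group sizes can give, 0.0283 each after Benjamini-Hochberg adjustment over the 14). H2-Aa per H2-Ab1 had log2 differences of -0.23 in wild type (7 of 9 laser libraries below all others, exact permutation p = 0.00839, adjusted 0.0294) and -0.29 in Ceacam1-/- choroid (7 of 7, exact permutation p = 0.00606, adjusted 0.0283). Libraries 14, 15 and 18 were among the 7 in both ratios, although their levels of Cd74 lay within the range without laser. Both ratios have H2-Ab1 as denominator, and how many other gene pairs separate in this way was not counted. H2-Eb1 per H2-Ab1 had differences of -0.08 and -0.11 (exact permutation p = 0.201 and 0.164). Ciita per H2-Ab1 had a difference of -0.69 in wild type (7 of 9 laser libraries below all others, exact permutation p = 0.0140, adjusted 0.0392) and of -1.01 in Ceacam1-/- choroid (0 of 7, exact permutation p = 0.152, adjusted 0.282).

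Skeletal muscle and lens RNA also differed between libraries. Sums of 8 muscle genes ran from 395972 to 688248 normalized counts in wild type choroid without laser and from 99939 to 425828 with laser, and none of the 8 passed the threshold (limma). Lens sums ran from 45.8 to 27486 within the Ceacam1-/- laser group alone, and none of 7 lens genes passed with laser in either genotype. At an unadjusted p under 0.05, no muscle or lens gene passed in wild type. In Ceacam1-/- choroid 8 of 8 muscle genes (all lower) and 1 of 7 lens genes (Lim2) did. The share over all genes was 20% in each genotype. Without the 5 libraries rich in photoreceptor RNA, 8 of 8 muscle genes fell with laser in Ceacam1-/- choroid (median -2.40) and 1 of 8, Atp2a1 (-1.36), in wild type, and no lens gene passed in either by limma.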
